A study of Oryctolagus cuniculus with 9 samples.

Results

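The genes described here are 10 ligands and receptors of the interleukin-1 family, taken by symbol from a table of 28788 gene rows. All 10 were found: the agonists IL1A, IL1B, IL18 and IL33, the antagonist IL1RN, the decoy receptor IL1R2, the signalling receptors IL1R1, IL18R1 and IL1RL1, and the accessory chain IL1RAP. They were measured by sequencing polyadenylated RNA from rabbit urethral tissue, in a study of a layered hydrogel for repairing the urethra without scarring, with 3 libraries under each of the codes S6, S7 and S9. The labels give no treatment, time, strain, sex or age for a code and name no control, and nothing in them ties a library to an animal, so the p-values cover only the spread between these libraries. Libraries are written as code and number, such as S6_2.

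Each library held 35127085 to 36832773 counts. Levels between libraries are given as CPM (counts relative to library size, scaled by TMM), and levels between genes as FPKM, which also divides by gene length. The tissue label was checked against 13 epithelial markers, summed at 2229 to 5710 CPM per library, and 9 smooth muscle markers, summed at 2099 to 12952 CPM. The squamous keratin KRT13 was at 448 to 1689 CPM, while the uroplakins, which define urothelium, were low: UPK1B at 1.23 to 22.4 CPM, UPK2 at 0.787 to 3.65 CPM, and UPK1A and UPK3A at up to 2.67 and 2.88 CPM with both at 0 in S9_2. One library of each code (S6_4, S7_3 and S9_4) had ATP6, a mitochondrially encoded gene, at 21.5 to 25.9 CPM against 1946 to 3258 CPM in the other 6, so each comparison was also run in those 6.

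Interleukin-1 alpha and beta both act through the receptor IL1R1, which must recruit the shared chain IL1RAP to signal through the adaptor MYD88 to NF-kappaB. IL1RN occupies IL1R1 without recruiting IL1RAP, and IL1R2 binds ligand but lacks a signalling domain. IL-33 uses IL1RL1 (also called ST2) with the same IL1RAP chain, and IL-18 uses IL18R1 with its own partner IL18RAP. IL-1 beta and IL-18 are made as precursors that caspase-1 cleaves, whereas IL-1 alpha and IL-33 are held in epithelial or stromal cells and released on damage, so that mRNA levels do not give the amount of active protein. On the RefSeq assembly mOryCun1.1, IL18RAP, IL18R1, IL1RL1, IL1RL2, IL1R1 and IL1R2 follow each other in this order on chromosome 2. IL1A, IL1B and IL1RN come after them on that chromosome, with IL37 and the IL36 genes between IL1A and IL1RN. Only genes of the family were placed in this order, so it does not show whether other genes lie between them.

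Per length, the mean levels of IL18, IL1RN and IL33 stood above those of every receptor in S6, S7 and S9, while those of IL1A and IL1B lay among the receptors. For IL1RN in S9 this rested on S9_4, at 20.3 FPKM. In S9_1 and S9_2 IL1RN was at 5.80 and 6.04 FPKM, below IL1R2 (9.25 and 8.58) and IL1R1 (7.89 and 7.24). In S6 the range of IL33, 17.4 to 41.9 FPKM, overlapped that of IL1RL1, 8.64 to 40.4 FPKM. IL18 had the highest mean level of the 10 genes under every code, at 212 ± 36.7 FPKM in S6 and 159 ± 29.0 in S9 (SD, n = 3), and at 180 in S7, with a range there of 170 to 193. IL1RN came next in S6, at 158 ± 53.6 FPKM, and its range there, 98.1 to 202 FPKM, overlapped that of IL18, 181 to 253 FPKM. In S9, IL33 stood in that place at 29.8 ± 14.3 FPKM, with IL1RN at 10.7 ± 8.28 FPKM, and the ranges of these genes overlapped. IL1RAP was the lowest in S6 and S7, at 0.703 ± 0.124 and 0.143 ± 0.0275 FPKM, and IL18R1 in S9, at 0.192 ± 0.0785 FPKM. The length that the deposited FPKM values imply for IL1RAP is 16308 bases, against 1258 for IL18, and a shorter transcript would give IL1RAP a higher level per length. Of the summed FPKM of the 5 ligands, IL1RN made up 27.7% to 45.6% in the S6 libraries, 5.33% to 21.7% in S7 and 3.19% to 8.76% in S9. IL18 made up 45.6% to 53.9%, 68.8% to 75.4% and 71.7% to 83.3%.

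**Figure D1:**
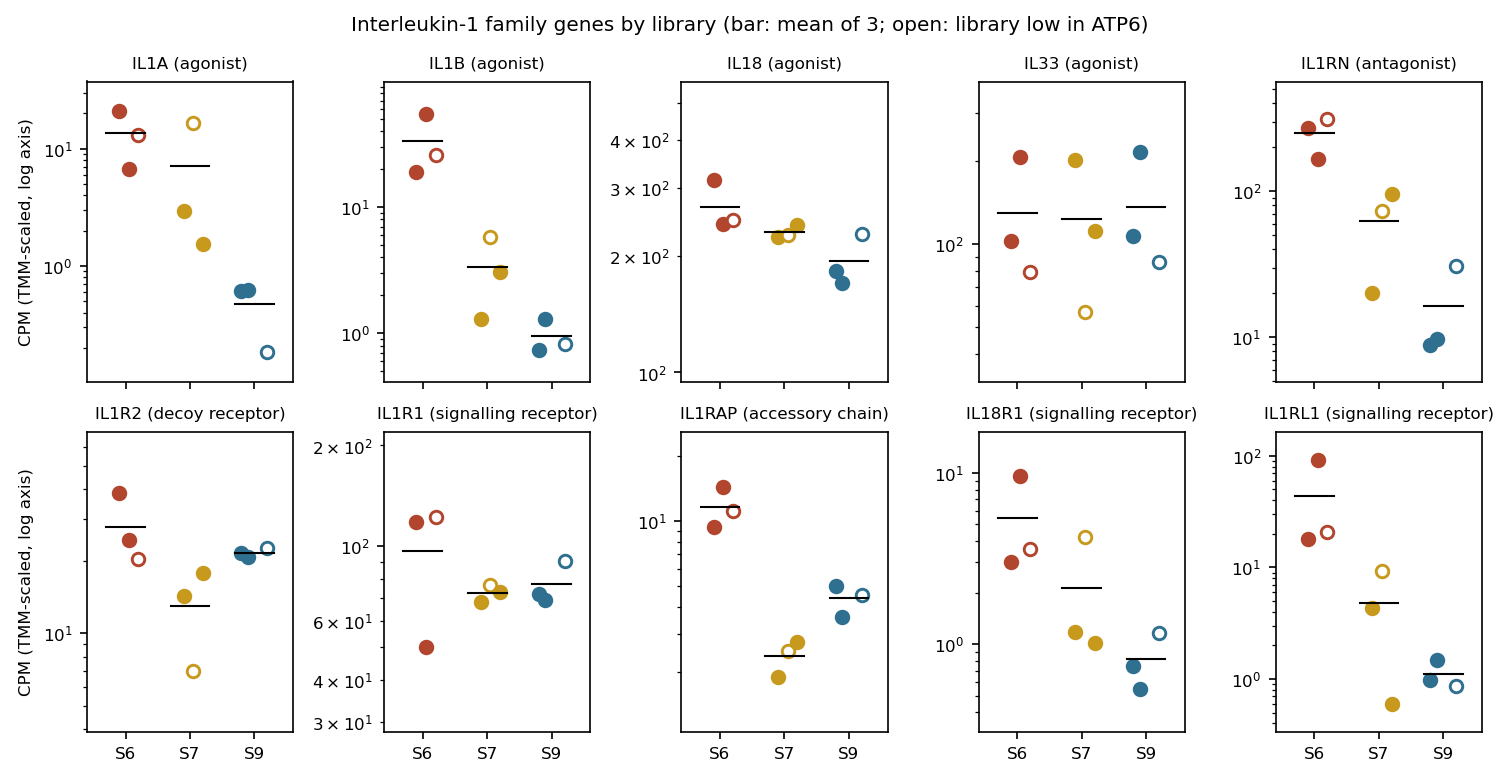
CPM (TMM-scaled, log axis with its own range in each panel) of the 10 genes in the 9 libraries, with a bar at the mean of 3 libraries and open circles for the libraries low in ATP6. IL1A, IL1B, IL18, IL1RN, IL1RAP, IL18R1 and IL1RL1 lie apart between S6 and S9, whereas IL33 has 1 library at 202 to 216 CPM under each code.

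The classical agonists IL1B and IL1A were lower in S9 than in S6. IL1B, the inflammatory cytokine made mainly by myeloid cells, was at 18.9, 55.1 and 25.9 CPM in S6_2, S6_3 and S6_4, at 1.31, 5.81 and 3.05 CPM in S7_2, S7_3 and S7_4, and at 0.741, 1.31 and 0.821 CPM in S9_1, S9_2 and S9_4. All 3 S6 libraries lay above all the others, and S7 and S9 met at their edge. The log2 fold change of S9 against S6 was -5.11 (SE 0.66, edgeR's adjusted p = 0.0132). IL1B had a log2 fold change of -3.30 for S7 against S6 (SE 0.60) and was not called by edgeR (adjusted p = 0.0871), although DESeq2 (adjusted p = 1.95e-06) and limma-voom (adjusted p = 0.0215) called it. Over 22 alternatives its adjusted p for S7 against S6 ran from 1.95e-06 to 0.267.

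IL1A, an agonist held in epithelial cells, followed a different order among the libraries. It was at 20.8, 6.66 and 13.2 CPM in S6_2, S6_3 and S6_4, at 2.97, 16.7 and 1.55 CPM in S7_2, S7_3 and S7_4, and at 0.609, 0.630 and 0.185 CPM in S9_1, S9_2 and S9_4. S7_3 reached the S6 range, so S7 and S6 overlapped, while every S9 library lay below every S7 library. S9 rests on 23, 23 and 7 counts. The log2 fold change of S9 against S6 was -4.83 (SE 1.0, edgeR's adjusted p = 0.0252), that of S9 against S7 was -3.89 (SE 0.96, edgeR's adjusted p = 0.538) and that of S7 against S6 was -0.94 (SE 0.84, edgeR's adjusted p = 0.629). Without S7_3 the S7 against S6 value was -2.57 (edgeR adjusted p = 0.165, 0.081 to 0.884 over the alternatives). DESeq2 called IL1A lower in S9 than in S7 (adjusted p = 0.00162, 0.00162 to 0.997 over the alternatives).

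Neither of the abundant agonists passed the test. IL18, which drives interferon-gamma production in lymphocytes, was at 315, 243 and 248 CPM in S6_2, S6_3 and S6_4, at 224, 227 and 241 CPM in S7_2, S7_3 and S7_4, and at 183, 170 and 229 CPM in S9_1, S9_2 and S9_4. Its S9 libraries lay below its S6 libraries, but the log2 fold change was -0.47 (SE 0.16, edgeR's adjusted p = 0.0882). DESeq2 and limma-voom called IL18 lower in S9 (adjusted p = 0.0327 and 0.0301, with 0.0301 to 0.448 over the alternatives).

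IL33, an alarmin stored in the nuclei of stromal, endothelial and epithelial cells, varied between the libraries of every code, and no comparison of codes was called. It was at 103, 208 and 79.1 CPM in S6_2, S6_3 and S6_4, at 202, 57.1 and 112 CPM in S7_2, S7_3 and S7_4, and at 107, 216 and 86.1 CPM in S9_1, S9_2 and S9_4. Each code thus had 1 library at 202 to 216 CPM, and the lowest library of each code was the one low in ATP6. The group means were 130 ± 68.5, 124 ± 73.0 and 136 ± 69.8 CPM (SD, n = 3), and the log2 fold changes were 0.07 for S9 against S6, -0.07 for S7 against S6 and 0.14 for S9 against S7, each with an SE of 0.53. This SE is larger than the difference of IL18 between S6 and S9, so a change of that size was not detectable for IL33.

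The antagonist IL1RN was lower in S9 together with the agonists it opposes. It was at 273, 166 and 314 CPM in S6_2, S6_3 and S6_4, at 20.0, 73.1 and 96.1 CPM in S7_2, S7_3 and S7_4, and at 8.89, 9.67 and 30.7 CPM in S9_1, S9_2 and S9_4. The S6 libraries lay above all others, and S9_4 lay above S7_2. The log2 fold change of S9 against S6 was -3.94 (SE 0.70, edgeR's adjusted p = 0.0196). DESeq2 called IL1RN lower in S7 than in S6 (adjusted p = 0.0163, 0.0163 to 0.362 over the alternatives), and edgeR did not. By edgeR the value for S7 against S6 was -1.99 (SE 0.64, adjusted p = 0.170) and for S9 against S7 -1.94 (SE 0.64, edgeR's adjusted p = 0.538). The counts do not separate the secreted from the intracellular form of IL1RN.

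The ratios of antagonist to agonist overlapped between the codes. The FPKM ratio of IL1RN to IL1B was 16.1, 3.37 and 13.6 in S6_2, S6_3 and S6_4, 17.1, 14.0 and 35.2 in S7_2, S7_3 and S7_4, and 13.4, 8.21 and 41.8 in S9_1, S9_2 and S9_4. Antagonist mRNA thus exceeded IL1B mRNA in all 9 libraries, least in S6_3, and the ranges overlapped around medians of 13.6, 17.1 and 13.4. The medians moved with the setting: that of S9 was 4.75 with 1 FPKM added to each value, 25.0 without S9_1 and 27.6 without S9_2, that of S7 was 10.8 with 1 FPKM added and 26.1 without S7_3, and that of S6 was 8.47 without S6_2. The ratio of IL1RN to IL1A ran from 16.3 to 31.1 in S6, from 5.47 to 77.1 in S7 and from 18.2 to 206 in S9, where the highest value rests on 7 IL1A counts. Against the sum of IL1A and IL1B, IL1RN had a median ratio of 8.10 in S6, 5.62 in S7 and 7.72 in S9. No test was made of these ratios, since 3 libraries against 3 cannot go below an exact permutation p of 0.10.

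**Figure D2:**
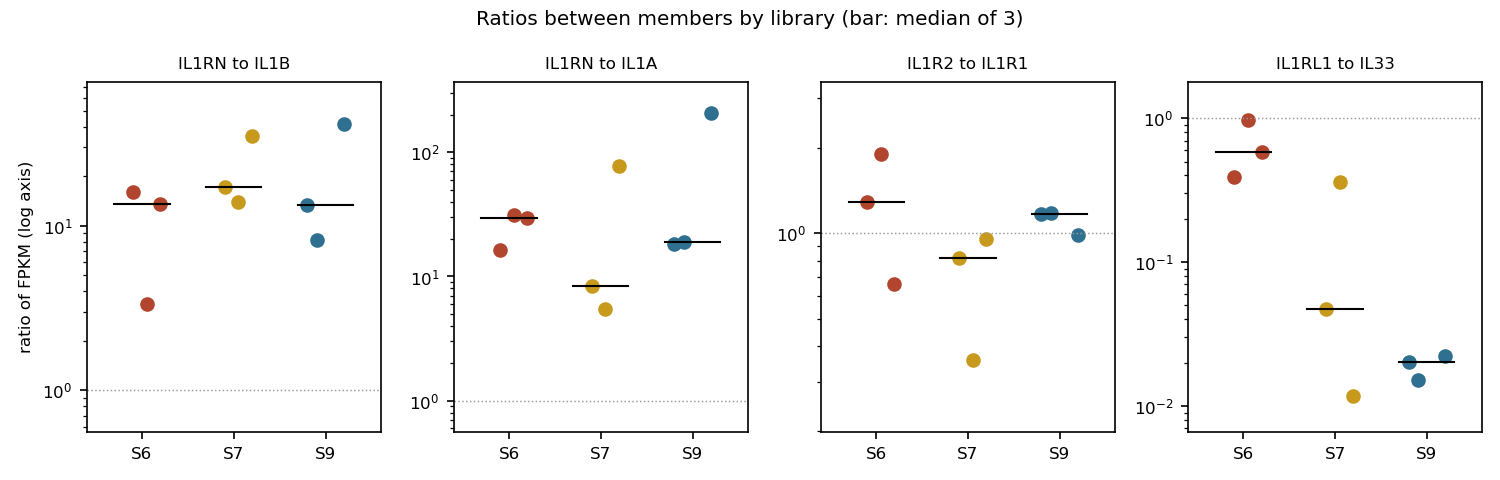
Ratios of FPKM between pairs of members in each library (log axes with their own ranges), with a bar at the median of 3 and a dotted line at equal levels. IL1RN to IL1B lies above 1 in all 9 libraries and overlaps between codes, and IL1RL1 to IL33 is 0.388 to 0.965 in S6 and 0.0151 to 0.0224 in S9.

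The decoy IL1R2 and the signalling receptor IL1R1 were not called in any comparison by edgeR, and they stood near each other per length. IL1R2 was at 38.6, 24.5 and 20.5 CPM in S6_2, S6_3 and S6_4, at 14.3, 6.95 and 17.9 CPM in S7_2, S7_3 and S7_4, and at 21.6, 20.9 and 22.8 CPM in S9_1, S9_2 and S9_4. Its S7 libraries lay below those of both other codes, with log2 fold changes of -1.09 against S6 (SE 0.35, edgeR's adjusted p = 0.167) and of 0.74 for S9 against S7 (SE 0.35, edgeR's adjusted p = 0.557). DESeq2 called IL1R2 lower in S7 than in S6 (adjusted p = 0.0432, 0.0432 to 0.362 over the alternatives). IL1R1 was at 118, 50.2 and 122 CPM in S6_2, S6_3 and S6_4, at 68.3 to 76.5 CPM in S7 and at 69.3 to 90.4 CPM in S9, so that S6 held both the highest and the lowest libraries. Without S6_3, IL1R1 was called lower in S9 than in S6 by edgeR, with a log2 fold change of -0.61 (adjusted p = 0.0453, 0.0453 to 0.87 over the alternatives) in place of -0.32 (SE 0.29, adjusted p = 0.503). The FPKM ratio of IL1R2 to IL1R1 was 0.661 to 1.91 in S6, 0.357 to 0.958 in S7 and 0.989 to 1.18 in S9.

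The shared chain IL1RAP separated all 3 codes, with S7 lowest. It was at 9.40, 14.4 and 11.1 CPM in S6_2, S6_3 and S6_4, at 1.88, 2.48 and 2.75 CPM in S7_2, S7_3 and S7_4, and at 4.98, 3.59 and 4.55 CPM in S9_1, S9_2 and S9_4. The codes did not overlap, and within a code the libraries spread less than those of IL1B or IL1RL1. IL1RAP was lower than in S6 both in S9 (log2 fold change -1.41, SE 0.28, edgeR's adjusted p = 0.0235) and in S7 (-2.29, SE 0.29, edgeR's adjusted p = 0.0445). For S9 against S7 the log2 fold change was 0.88 (SE 0.28, edgeR's adjusted p = 0.538). IL1R2 had the same sign, at 0.74 (SE 0.35), and IL33 and IL1R1 were near 0, at 0.14 and 0.09 (SE 0.53 and 0.29). IL1A, IL1B, IL18, IL1RN, IL18R1 and IL1RL1 had the opposite sign. The FPKM ratio of IL1RAP to IL1R1 was 0.0467 to 0.167 in S6, 0.0161 to 0.0219 in S7 and 0.0294 to 0.0402 in S9.

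The receptors of IL-33 and IL-18 were called lower in S9 than in S6 by edgeR, which did not call their ligands, although DESeq2 and limma-voom called IL18. IL1RL1, found on mast cells, type 2 lymphoid cells and regulatory T cells, and also made as a soluble decoy, was at 18.1, 91.0 and 20.9 CPM in S6_2, S6_3 and S6_4, at 4.34, 9.38 and 0.599 CPM in S7_2, S7_3 and S7_4, and at 0.979, 1.48 and 0.874 CPM in S9_1, S9_2 and S9_4. The S6 libraries lay above all others, and S7_4 lay below every S9 library. The log2 fold change of S9 against S6 was -5.28 (SE 1.04, edgeR's adjusted p = 0.0235), and it was -4.12 without S6_3 (edgeR adjusted p = 0.0424, 1.62e-08 to 0.0988 over the alternatives). For S7 against S6 it was -3.18 (SE 0.94), called by DESeq2 (adjusted p = 0.00375) but not by edgeR (adjusted p = 0.149). The FPKM ratio of IL1RL1 to IL33 was 0.388, 0.965 and 0.584 in the S6 libraries, 0.0474, 0.362 and 0.0118 in the S7 libraries and 0.0201, 0.0151 and 0.0224 in the S9 libraries. The counts do not separate the membrane from the soluble form of IL1RL1.

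IL18R1, the ligand-binding chain for IL-18 on T and NK cells, was at 3.03, 9.66 and 3.57 CPM in S6_2, S6_3 and S6_4, at 1.17, 4.21 and 1.01 CPM in S7_2, S7_3 and S7_4, and at 0.741, 0.548 and 1.16 CPM in S9_1, S9_2 and S9_4. S7_3 lay inside the S6 range, and the S9 libraries, with 20 to 44 counts each, overlapped those of S7. The log2 fold change of S9 against S6 was -2.72 (SE 0.72, edgeR's adjusted p = 0.0428). It was -1.99 without S6_3 and no longer called (edgeR adjusted p = 0.11, 0.00121 to 0.143 over the alternatives).

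In all, 6 of the 10 members were called lower in S9 than in S6 and none higher, where edgeR's quasi-likelihood test called 12.4% of 17102 genes, 6.34% as lower and 6.02% as higher. The median log2 fold change was -2.06 for the 10 members and -0.011 for all genes. At an unadjusted p below 0.05 stood 7 members, the 6 called and IL18, all lower, against 15.8% of genes that were lower at that threshold. For the same 7 members every S9 library lay below every S6 library, against 17% of genes.

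For S7 against S6 only IL1RAP was called, where edgeR called 0.111% of genes and 0.0643% as lower. An unadjusted p below 0.05 was reached by 5 members (IL1B, IL1RN, IL1R2, IL1RAP and IL1RL1), all lower, against 8.44% of genes. Of the 10, 6 members (these 5 and IL18) had all S7 libraries below all S6 libraries, against 10.4% of genes. All 10 had a negative log2 fold change (median -1.22, against -0.01 for all genes). These comparisons share the S6 libraries and are not independent of each other.

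For S9 against S7 edgeR called no member and 0% of genes, while DESeq2 called IL1A among 123 genes. At an unadjusted p below 0.05 stood 4 members (IL1A, IL1B and IL1RN lower, IL1RAP higher), against 9.21% of genes. The libraries did not overlap for 3 members (IL1A lower, IL1R2 and IL1RAP higher), against 17.2% of genes. With the 3 codes tested together, IL1B, IL1RAP, IL1RN and IL1RL1 were called (edgeR adjusted p = 0.0207, 0.0227, 0.0459 and 0.0489), where 2.43% of genes were.

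**Figure D3:**
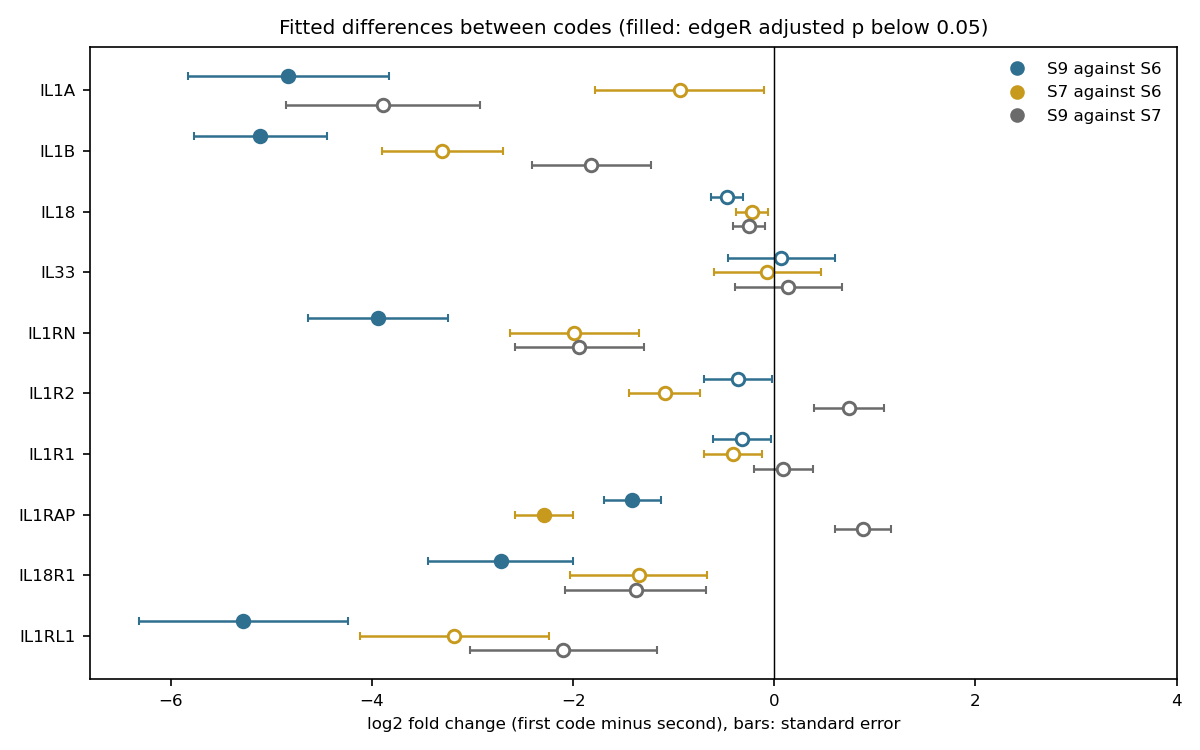
Fitted log2 fold change (first code minus second) of the 10 members in 3 comparisons, with bars of 1 standard error and filled points where the edgeR adjusted p was below 0.05. The 6 filled points of S9 against S6 run from -1.41 for IL1RAP to -5.28 for IL1RL1, and IL1RAP and IL1R2 are the members whose S9 against S7 point lies furthest right of 0.

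Several calls were lost when a library was left out. The number of members called for S9 against S6 was 1, IL1B, without S6_4, and 0 without S9_1, without S9_2 or in the 6 libraries with high ATP6. Of all genes edgeR called 89 without S6_4, 4 without S9_2, 7 in the 6 libraries and none without S9_1, with 3994 then at an unadjusted p below 0.05. IL1B, with the smallest p of the members, was at an adjusted p of 0.0419 without S6_4, 0.0797 without S9_1, 0.0604 without S9_2 and 0.0585 in the 6 libraries. IL1RAP was also not called without S6_3 (log2 fold change -1.21, adjusted p = 0.0547), nor IL18R1 without S6_3, S7_4 or S9_4 (adjusted p = 0.11, 0.0542 and 0.0593). Over the 9 fits that leave out a library, the log2 fold change of S9 against S6 stayed between -4.53 and -5.41 for IL1B, -4.38 and -5.14 for IL1A, -1.21 and -1.54 for IL1RAP, and -3.63 and -4.74 for IL1RN, whose largest value was without S9_4. The IL1RAP call of S7 against S6 was lost without any 1 of the 9 libraries, with edgeR adjusted p of 0.0523 to 0.194 and log2 fold changes of -2.11 to -2.42.

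Among the family genes outside these 10, expression was mostly low. Of 12 listed, 10 were in the table and 7 were tested, with a median log2 fold change of -2.05 for S9 against S6. The skin and mucosal agonist IL36A was called lower in S9 (edgeR adjusted p = 0.0289). It had 264 counts over the S6 libraries, 12 over those of S7 and none over those of S9, which makes it at least 88.7-fold higher in S6 than in S9 at a floor of 3 counts over the group. At this bound, a log2 fold change of -6.47, IL36A remained the lowest of the 7, so the list median of -2.05 could not change. IL18RAP, the partner chain of IL18R1, was at 6.96 ± 5.57 CPM in S6 and 1.42 ± 0.978 CPM in S9 (edgeR adjusted p = 0.0572). IL18BP, the soluble inhibitor of IL-18, was at 50.5 ± 29.8, 17.1 ± 7.23 and 19.5 ± 10.7 CPM in S6, S7 and S9, and was not called.

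Of the inflammasome and processing genes, 7 of 18 listed were tested, and 3 were called lower in S9 than in S6 with none higher (median -1.44), against 6.34% of all genes called lower. CASP1, which cleaves the IL-1 beta and IL-18 precursors, was at 15.4 ± 4.81 CPM in S6, 2.52 ± 0.652 in S7 and 1.61 ± 0.581 in S9, with a log2 fold change of -3.26 for S9 against S6 (SE 0.39, edgeR's adjusted p = 0.0117) and of -2.61 for S7 against S6 (SE 0.38, edgeR's adjusted p = 0.06). GSDMD, the pore through which mature IL-1 beta leaves the cell, had a log2 fold change of -2.33 (SE 0.53, edgeR's adjusted p = 0.0299), and the caspase CASP8 one of -1.44 (SE 0.31, edgeR's adjusted p = 0.0264). Of the 18 listed, only 9 were found in the table by symbol, and the sensors NLRP3 and AIM2 were not among them.

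All 20 listed genes of the shared signalling machinery between receptor and NF-kappaB were tested, with a median log2 fold change of -0.01 for S9 against S6, near that of all genes. In that comparison 2 were called lower and none higher, where 6.34% of all genes were called lower and 6.02% higher. MYD88 was at 114 ± 11.0 CPM in S6, 88.6 ± 3.96 in S7 and 70.5 ± 4.76 in S9 (log2 fold change -0.69, SE 0.12, edgeR's adjusted p = 0.0196), and the kinase IRAK2 at 45.8 ± 7.45, 19.3 ± 8.78 and 16.2 ± 1.05 CPM (log2 fold change -1.50, SE 0.29, edgeR's adjusted p = 0.0229). For S7 against S6 none was called, and IRAK2 and NFKB1 had the smallest p (edgeR adjusted p = 0.109 and 0.124).

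Genes known to be induced by IL-1, most of which other inflammatory signals induce as well, were lower in S9 in part. Of 25 listed, 22 were tested, 12 were called lower in S9 than in S6 and none higher, against 6.34% of all genes called lower, with a list median of -1.86. The acute-phase protein SAA3 had the smallest p of these, with a log2 fold change of -7.21 (SE 0.64, edgeR's adjusted p = 0.00881). The adhesion molecule ICAM1 was at 137 ± 18.9 CPM in S6, 62.2 ± 12.4 in S7 and 51.0 ± 4.56 in S9. The log2 fold changes of the chemokine CXCL8 and the collagenase MMP1 were -5.00 and -5.85. For S7 against S6, TNFAIP3 and SAA3 were called lower (median of the list -1.36). PTGS2, the inducible prostaglandin synthase, was at 52.0 ± 27.7 CPM in S6, 10.3 ± 3.11 in S7 and 24.8 ± 7.55 in S9 and was not called, and like IL1RAP it was lowest in S7. IL6 and CSF2 did not pass the filter on low counts and reached at most 48 and 145 counts in a library.

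Of 11 genes known downstream of IL-18 and IL-33, 5 were tested, and the type 2 chemokine CCL17 was called lower in S9 than in S6 (edgeR adjusted p = 0.04, list median -1.60). CCL17 was at 43.7 CPM in S6_3 and at most 1.05 CPM in the other 8 libraries. The cytotoxic protein PRF1 had a log2 fold change of -1.60 (SE 0.54, edgeR's adjusted p = 0.0823). IL13, IL5, IL4 and IFNG were below the filter, and S6_3 held 172 of the 176 IL13 counts, all 10 IL5 counts, 28 of the 29 IL4 counts and 89 of the 110 IFNG counts of the series. These 4 genes are named after their values were seen. S6_3 is also the library with the highest IL1B, IL1RL1 and IL18R1 and the lowest IL1R1.

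For S9 against S7 edgeR called no gene of these 5 lists. The smallest p of each list belonged to IL36A, NEK7, TOLLIP, MMP1 and PRF1 (edgeR adjusted p of 0.538 to 0.639).

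**Figure D4:**
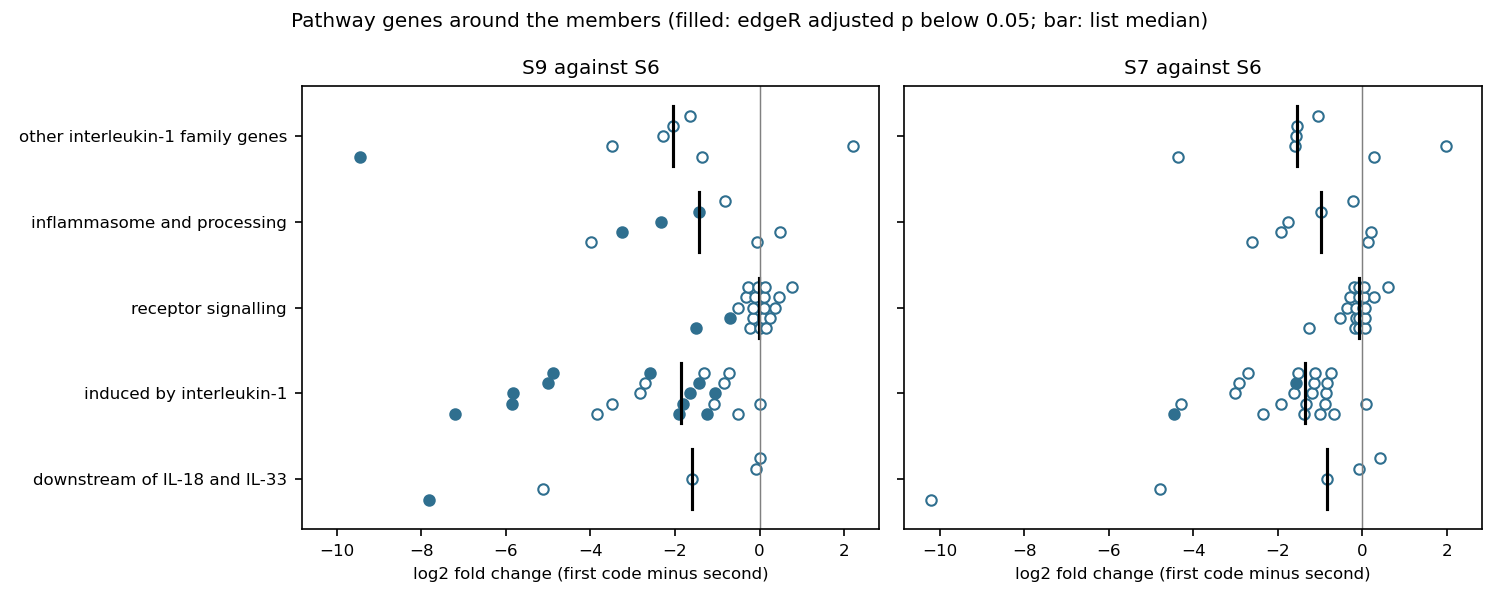
Log2 fold change (first code minus second) of the tested genes in 5 lists around the members, filled where the edgeR adjusted p was below 0.05, with a bar at the list median. For S9 against S6 the signalling genes centre on -0.01, while the genes induced by interleukin-1 have a median of -1.86 and 12 filled points.

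Several markers of neutrophils, macrophages and lymphocytes were lower in S9 than in S6, as the 6 called members were. In bulk tissue, fewer cells of a type and less RNA per cell cannot be told apart. Of 9 neutrophil markers tested, 7 were called lower in S9 than in S6, where 6.34% of all genes were, and the 12 in the table summed to 8879 to 15835 CPM in S6, 5680 to 8112 in S7 and 835 to 6441 in S9. Most of the sum of S9_2 was LTF, which glands also make, at 5680 CPM. Without LTF, a choice made after seeing the values, the sums were 8341 to 15802 CPM in S6, 2916 to 6534 in S7 and 437 to 760 in S9. Among the neutrophil granule genes, MMP8 was at 0 in every library and MPO in 8 of the 9. The S7 libraries stood in the same order for IL1B as for this sum, highest in S7_3 and lowest in S7_2, but the S6 libraries did not: S6_2 had a higher sum than S6_4 (12734 against 8341 CPM without LTF) and less IL1B.

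Of 13 macrophage and monocyte markers, 7 were called lower in S9 than in S6, and they summed to 804 to 2393 CPM in S6, 441 to 568 in S7 and 303 to 556 in S9. Of 12 T and NK cell markers listed, 8 were in the table, and NKG7, GNLY, KLRB1 and KLRD1 were not found by symbol. The 8 are mainly T cell markers, so NK cells were not measured apart. Of these 8, 5 were called lower, with sums of 45.3 to 170 CPM in S6, 26.4 to 56.4 in S7 and 16.5 to 41.6 in S9. Of 7 B and plasma cell markers, 4 were called lower, with sums of 2195 to 3282, 438 to 1549 and 903 to 1681 CPM. The 6 mast cell markers in the table summed to 19.6 to 44.8, 16.9 to 21.2 and 15.5 to 23.4 CPM, with the protease CPA3 at 0 in every library, and 1 of 5 tested, the IgE receptor chain MS4A2, was called lower. MS4A2, another IgE receptor chain, FCER1A, and HDC were highest, at 8.93, 18.6 and 3.75 CPM, in S6_3, the library with the highest IL1RL1. KIT went the other way, with S6_3 the lowest S6 library at 12.8 CPM, and HPGDS was highest in S9_1, at 1.27 CPM. The highest macrophage and monocyte sum and the highest T and NK cell sum, 2393 and 170 CPM, were also in S6_3. The part of these cell types in the differences of the members was not tested.

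Markers of resident tissue were counted in the same way, where 6.02% of all genes were called higher in S9 than in S6 and 6.34% lower. None of 13 epithelial markers was called lower in S9 than in S6 and 1, KRT18, was called higher, with sums of 3622 to 4953 CPM in S6, 3714 to 5710 in S7 and 2229 to 5508 in S9. Among 9 smooth muscle markers, 7 were called higher (2099 to 3720 CPM in S6, 3488 to 11344 in S7 and 6827 to 12952 in S9). Of 10 endothelial markers 3 were called higher, and of 10 fibroblast markers 1, which with the 1 epithelial marker is near the share over all genes. The endothelial sums were 1288 to 1599, 1012 to 2424 and 1209 to 2611 CPM in S6, S7 and S9. Under each code the library with the highest endothelial sum, S6_3, S7_2 or S9_2, was the one with the highest IL33, and the library with the lowest was the one with the lowest IL33 and low ATP6. Most of the sum in S6_3, S7_2 and S9_2 was VWF, at 938, 1412 and 1529 CPM. VWF, PECAM1 and ERG were each highest in these libraries under every code, whereas CDH5, KDR, CLDN5, TEK, EMCN, PROX1 and LYVE1 were not. The fibroblast sums were 28615 to 46189, 50010 to 105591 and 40639 to 53803 CPM, with the highest in S7_3, where IL33 was lowest. Most of that sum was COL1A1, COL1A2 and COL3A1, at 35155, 27789 and 33317 CPM. LUM and DPT were also highest in S7_3, whereas FBLN1 and PI16 were lowest there, at 625 and 1020 CPM. PDGFRA, DCN and MFAP5 were neither highest nor lowest in S7_3. The part of these markers in the level of IL33 was not tested.

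Finally, the genes whose levels ran most like those of 4 members were looked up among 10930 genes with a symbol and a mean of at least 5 CPM, by Pearson's r of log2 CPM over the 9 libraries. This describes the libraries, which share their codes and cell makeup. For IL1B they were CASP9, IL10RB and CREM (r of 0.984 to 0.986), and IL10RB, a receptor chain for interleukin-10 and related cytokines, had means of 97.9, 55.7 and 36.5 CPM in S6, S7 and S9. For IL1RN they were the antiviral gene OASL, HSH2D and SQOR (0.988 to 0.994), with OASL at 87.0, 25.0 and 8.19 CPM. For IL33 they were NOD1, PFKP and DDX47 (0.917 to 0.921). The intracellular peptidoglycan sensor NOD1 was at 102, 85.7 and 99.7 CPM in the libraries with the highest IL33 under each code, and at 61.8 to 83.2 CPM in the other 6. For IL1R1 they were ARHGEF28, RANBP10 and ITPKC (0.961 to 0.974).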

How the data were processed

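The authors deposited whole-number counts of reads per gene, not normalized, and FPKM values. Per the submitters' processing notes fastp, HISAT2 and HTSeq were used. For their versions, the genome build and the strand setting: not given in the sources used here. FPKM values equalled counts over column total and a whole gene length in 172953 of 172961 values above 0 (relative tolerance 1e-06).

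Columns were mapped by name. Genes were filtered with filterByExpr (minimum count 10, minimum total 15), leaving 17102, and fitted over all 9 libraries after TMM scaling by robust quasi-likelihood (edgeR 4.0.16 in R 4.3.3; DESeq2 1.42.0 and limma 3.58.1 for alternatives). Adjusted p is by Benjamini-Hochberg over all genes, with a threshold of 0.05. All 10 members passed the filter. The script was tested on simulated data. The members, lists and alternatives were chosen with earlier results of these data known. Named genes were the members, the called list genes with the smallest p (up to 4 a list and comparison, or 2 where none was called) and the 3 genes most like IL1B, IL1RN, IL33 and IL1R1. ATP6, IL18RAP, IL18BP, PTGS2, IL6, CSF2 and single cell type markers were named after their values were seen. RefSeq (mOryCun1.1) gave symbols for 515 of 12867 LOC rows and the gene order.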

Additional observations from a re-analysis of the deposited data

How the results depend on the processing

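For S9 against S6, edgeR called 2115 genes, and 6 members, which became 16 and 0 with a replicate block and 7 and 0 in the 6 libraries with high ATP6. DESeq2 called 4112 genes and limma-voom 4061, and 7 members each. Leaving out a library gave 0 to 2076 genes and 0 to 6 members. For S7 against S6, 19 genes and 1 member became 1417 and 5 by DESeq2, 306 and 2 by limma-voom, 52 and 2 on log2(FPKM + 1), 37 and 0 on log2(FPKM + 0.1), 1 and 0 with a replicate block, 0 and 0 with the 2 groups alone or the 6 libraries, and 4 and 0 with a term for the ATP6 class. Leaving out a library gave 0 to 10 genes and 0 members. For S9 against S7, 0 genes became 123 by DESeq2, with 1 member, and 1 in the 6 libraries. Leaving out a library gave 0 to 1 genes and 0 members. For the 3 codes together, 4 members and 415 genes became 2 members without the filter, 0 and 0 in the 6 libraries, 0 and 2 with a replicate block, 3305 genes by DESeq2, and 0 to 4 members and 0 to 641 genes without a library. These alternatives of the joint test were chosen after seeing the data. The causes of these changes were not tested, and some of the fits also hold fewer libraries.

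Among the members, signs changed only for IL33 and IL1R1, both near 0. For S9 against S6, IL33 was at -0.02 with the length correction, -0.07 without S6_2, -0.17 without S6_4 and -0.43 without S9_2 (up to 0.60 without S6_3). For S7 against S6 it was at 0.23 by limma-voom, 0.01 in the 6 libraries and without S7_4, 0.45 without S6_3 and 0.29 without S7_3 (down to -0.62 without S7_2). For S9 against S7 it was at -0.19 without S7_3 and -0.35 without S9_2 (up to 0.69 without S7_2), and IL1R1 was at -0.08 with a replicate block, 0.00 in the 6 libraries, -0.10 with the length correction and -0.02 without S9_4 (up to 0.16 without S9_2). The median ratios between members stayed within 1 SD of their main value with a pseudocount of 0.1 or 1 FPKM. With 1 FPKM the S9 medians still fell from 13.4 to 4.75 for IL1RN to IL1B and from 19.1 to 5.35 for IL1RN to IL1A. Leaving out 1 of 3 libraries cannot move a median by 1 SD, so this rule shows no stability there. Without a library the medians of IL1RN to IL1B moved as given above.

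The labels do not say that equal numbers mark 1 animal. Deviations from the group means of same-numbered S6 and S7 libraries correlated at 0.138, 0.132 and 0.023 across genes, those of S6 and S9 at -0.065 and 0.127, and those of S7 and S9 at 0.064 and 0.020. Pairs with different numbers ran from -0.178 to 0.103. Because the labels give no pairing, the numbers were not taken to pair libraries, and the replicate block was run as an alternative. These correlations do not settle whether equal numbers mark 1 animal. S6_2 and S6_3 each correlated best with the same-numbered S7 library, S6_4 with S7_3 (0.044) among the S7 libraries but with S9_4 among all. IL1A in S9 rests on 7 to 23 counts a library and IL18R1 on 20 to 44, which limits both.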
